A study of Homo sapiens with 6 samples.

Results

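Intermediate filaments are the cytoskeletal system described here, through 10 genes in HEK293 cells after knockdown of the long noncoding RNA *HSALNG0134318*. The members were the neurofilament-class genes *NEFH*, *NEFM*, *NEFL*, *INA* and *PRPH*, the genes *VIM* and *NES*, and the keratin genes *KRT8*, *KRT18* and *KRT19*. They were taken from the deposited table by symbol, 10 of the 26485 gene names listed, and all 10 passed the filter on low counts that kept 14877 genes. The family was chosen by differences already seen between these same knockdown and control cultures, *NEFH* being among the larger rises, so every knockdown-against-control value of a member is given as a description and supports nothing by itself.

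RNA-seq of polyadenylated RNA was performed on 6 cultures of HEK293, a single human line derived from embryonic kidney. The knockdown group held 3 cultures transiently transfected, with Lipofectamine RNAiMAX, with a Smart Silencer against *HSALNG0134318*, a reagent that combines siRNAs with antisense oligonucleotides. The control group held 3 HEK293 cultures labelled NC and, under genotype, WT, and what they received is not given in the sources used here. The labels number the knockdown replicates 1, 2 and 3 as cultures 1, 4 and 5 and the control replicates 1, 2 and 3 as cultures 10, 11 and 1, and the series describes them as biological replicates. The silenced transcript has no row in the table, so its level could not serve as a check of the labels.

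Intermediate filament proteins share a coiled-coil rod and assemble into ropes that carry mechanical load. Neurons build theirs mainly from the light, medium and heavy neurofilament chains with alpha-internexin and peripherin, and the light chain is the core on which the heavy and medium chains assemble. Vimentin filaments are typical of mesenchymal and cultured cells, nestin of progenitor cells, and keratin filaments of epithelia, where each filament needs a type I and a type II keratin. HEK293 cells are known to carry neurofilament proteins beside vimentin and keratins.

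The heavy chain differs from the other chains in its long tail, which carries many repeats of lysine, serine and proline whose serines are phosphorylated in axons. A stretch of the tail is shown because *NEFH* is the member on which the account turns. In the reference coding sequence, the codons for lysine, serine and proline stand in a row 40 times in the 1020 codons of *NEFH* and 13 times in the 916 codons of *NEFM*. They do so 1 time in *NES* and 0 times in each of the other 7 members. *NEFH* occupies chromosome 22 between 29480218 and 29491390, plus strand (hg38, GENCODE 44), and the stretch at chr22:29489186-29489365 is in exon 4 of 4, codons 516 to 575. It is 180 bases long, and the capitals mark its 9 runs of lysine, serine and proline codons.
NEFH tail: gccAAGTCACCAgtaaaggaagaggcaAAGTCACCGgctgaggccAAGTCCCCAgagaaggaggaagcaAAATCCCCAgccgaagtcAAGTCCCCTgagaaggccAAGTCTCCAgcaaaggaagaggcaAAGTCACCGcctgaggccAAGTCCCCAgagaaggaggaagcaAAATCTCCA

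*NEFH*, the heavy chain, was the member with the largest positive difference. It had 305, 260 and 244 counts in knockdown cultures 1, 2 and 3 and 84, 57 and 144 in control cultures 1, 2 and 3. After normalization to the mean library size these were 294, 271 and 262 against 85.7, 50.9 and 148 normalized counts. All knockdown cultures lay above all control cultures, and the control cultures were spread widely while the knockdown cultures lay close together. The means were 276 ± 16.5 and 94.9 ± 49.3 normalized counts (SD, n = 3 cultures each). Knockdown exceeded control by 1.55 on the log2 scale (standard error 0.30), with an adjusted p of 0.010 in edgeR's quasi-likelihood fit over all 14877 genes with Benjamini-Hochberg adjustment, printed as a description. Genes whose adjusted p in that fit was under 0.05 are termed called from here on. *NEFH* stood at rank 5 by log2 fold change among the 721 genes that were called higher and averaged 100 counts or more. Leaving out knockdown replicate 1 gave an edgeR adjusted p of 0.058, and leaving out knockdown replicate 2 gave 0.051. The difference ran from 1.24 without control replicate 2 to 2.03 without control replicate 3. In bulk RNA, more cells that express a gene and more RNA per cell cannot be told apart.

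*NEFM*, the medium chain, had 846, 612 and 574 counts in the knockdown cultures and 294, 296 and 603 in the control cultures. Control culture 3 lay within the knockdown range, so the groups overlapped, while the other control cultures were far lower. The means were 690 ± 109 and 395 ± 196 normalized counts (SD, n = 3 cultures), a log2 difference of 0.81 (standard error 0.31) with an edgeR adjusted p of 0.14. Without control replicate 3 it was 1.30, with an edgeR adjusted p of 0.0011. Without control replicate 2 it was 0.59, with an edgeR adjusted p of 0.19.

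*NEFL*, the light chain, had 2575, 2381 and 2394 normalized counts in the knockdown cultures and 1919, 1878 and 2372 in the control cultures. The groups did not overlap, but control culture 3 lay close to the lowest knockdown culture. *NEFL* differed by 0.25 on the log2 scale (standard error 0.10, edgeR adjusted p of 0.14), and by 0.37 without control replicate 3 (edgeR adjusted p of 0.025). Without control replicate 2 it differed by 0.19. *NEFM* and *NEFL* are neighbours on chromosome 8 (hg38), from 24913758 to 24919098 on the plus strand and from 24950955 to 24956721 on the minus strand.

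*INA*, which encodes alpha-internexin, had 712, 767 and 781 normalized counts in the knockdown cultures and 736, 720 and 718 in the control cultures. The groups overlapped and the control cultures were almost equal, with a coefficient of variation of 1.32%. On the log2 scale the difference was 0.06 (standard error 0.10). *INA* (chromosome 10, 103277138 to 103290346, plus strand) overlaps *NT5C2* on the opposite strand, which had 1135 to 1333 counts, and the strand setting used in counting is not given in the sources used here, so reads of the overlap cannot be assigned with certainty.

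*PRPH*, which encodes peripherin, was near the lower limit of the table. It had 7, 10 and 10 counts in the knockdown cultures and 12, 39 and 9 in the control cultures. Control culture 2 alone was high and the other cultures overlapped. Its log2 fold change of -1.04 (standard error 0.53, edgeR adjusted p of 0.23) was -0.22 once control replicate 2 was left out.

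*VIM*, which encodes vimentin, was the most abundant member by count. It had 13416, 11322 and 10803 normalized counts in the knockdown cultures and 9313, 10248 and 13694 in the control cultures. The groups overlapped, with control culture 3 the highest of all 6. A log2 fold change of 0.10 (standard error 0.14) resulted, which was -0.0039 when knockdown replicate 1, and -0.015 when control replicate 1, was left out. The antisense row *VIM-AS1*, which overlaps *VIM* on chromosome 10, had 34 to 63 counts.

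*NES*, which encodes nestin, had 132, 135 and 134 normalized counts in the knockdown cultures and 94.9, 84.8 and 119 in the control cultures. All knockdown cultures lay above all control cultures and were almost equal to each other. This gave 0.42 on the log2 scale (standard error 0.18), with an edgeR adjusted p of 0.15, and of 0.056 without control replicate 3. Without control replicate 2 the difference was 0.32, with an edgeR adjusted p of 0.25.

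*KRT8*, the type II keratin of simple epithelia, had 7949, 5952 and 5872 normalized counts in the knockdown cultures and 5850, 6442 and 7326 in the control cultures. Knockdown culture 1 was the highest and the groups overlapped. Its log2 fold change of 0.01 (standard error 0.13) became -0.15 if knockdown replicate 1, and -0.06 if control replicate 1, was left out.

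*KRT18*, its type I partner, had 2184, 1576 and 1675 normalized counts in the knockdown cultures and 1122, 1588 and 1630 in the control cultures. Knockdown culture 1 was again the highest, control culture 1 the lowest, and the groups overlapped. *KRT18* differed by 0.32 on the log2 scale (standard error 0.16, edgeR adjusted p of 0.22), and by 0.17 without knockdown replicate 1.

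*KRT19*, a type I keratin found in simple and ductal epithelia, had 1951, 1567 and 1610 normalized counts in the knockdown cultures and 1429, 2016 and 1692 in the control cultures. The groups overlapped throughout. The fitted log2 difference was -0.0028 (standard error 0.13) and its sign depended on the scaling, being 0.0020 with DESeq2's size factors and 0.0075 with library sizes alone. *KRT8* and *KRT18* lie side by side on chromosome 12 (52897187 to 52949954, minus strand, and 52948871 to 52952906, plus strand), and their annotated gene bodies overlap. GENCODE lists 51 pseudogenes of *KRT8*, 68 of *KRT18* and 5 of *KRT19*, of which the table holds 1 each, with at most 2 counts in any culture. How reads shared with such copies were counted is not given in the sources used here, so the keratin counts are uncertain in that respect.

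Of the 10 members, 1 was called higher (*NEFH*) and 0 were called lower in edgeR's fit, DESeq2 and limma-voom also giving 1 higher and 0 lower. At an unadjusted p under 0.05 there were 4. No share of all genes tested is given at that threshold, here or for the lists below, so these counts have no background to be compared with. Among all genes tested, 10% were called, 5.40% higher and 4.64% lower. The groups did not overlap for 3 members (*NEFH*, *NEFL* and *NES*, all higher), against 32.2% of all genes tested. Log2 fold changes were positive in 8 members and negative in 2, with a median of 0.17 beside -0.02 over all genes tested. The count of members called higher was 0 without knockdown replicate 1 or 2 and 3 without control replicate 3, which then included *NEFM* and *NEFL*. Over all genes, 804 were called higher with all cultures. Without knockdown replicate 1, knockdown replicate 2 and control replicate 3 these were 341, 289 and 1087. The plots of normalized counts and of fitted differences show each gene in turn.

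**Figure D1:**
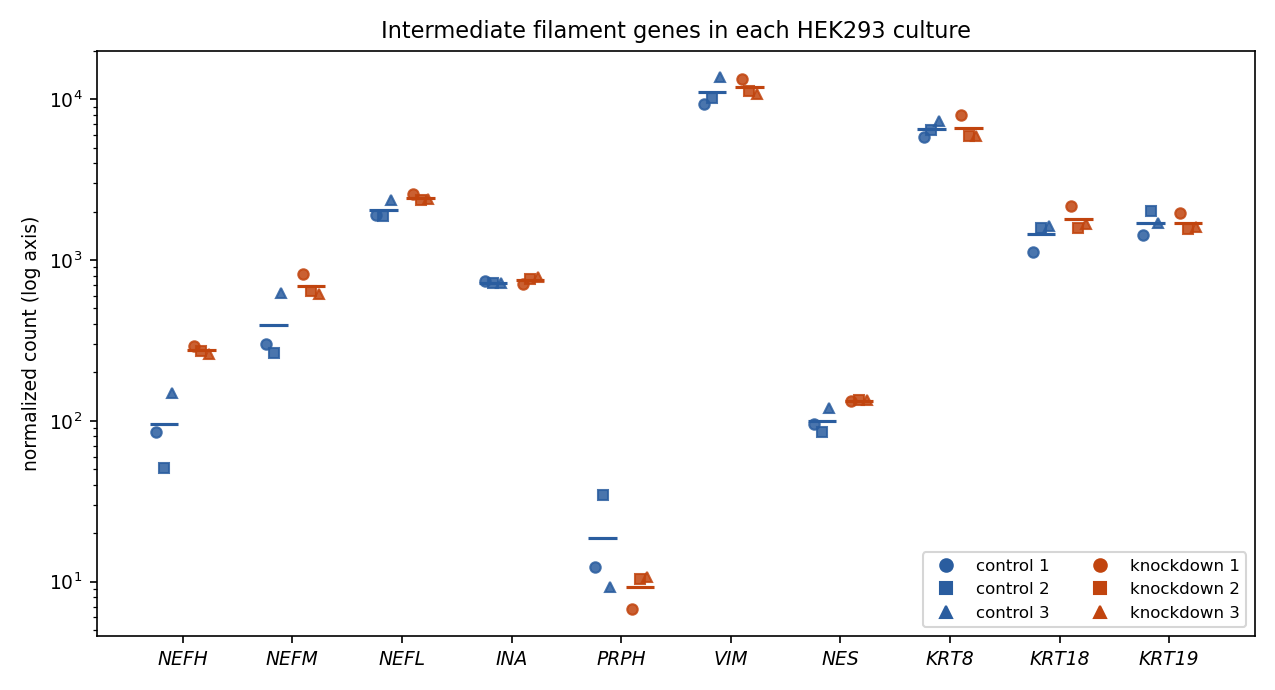
Normalized counts (log axis) of the 10 genes in each of 3 control (blue) and 3 knockdown (red) cultures, with the replicate number as the marker and the group mean as a line. The *NEFH* knockdown points, 262 to 294, sit above the control points, 50.9 to 148, while the points of *VIM*, *KRT8* and *KRT19* intermix.

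**Figure D2:**
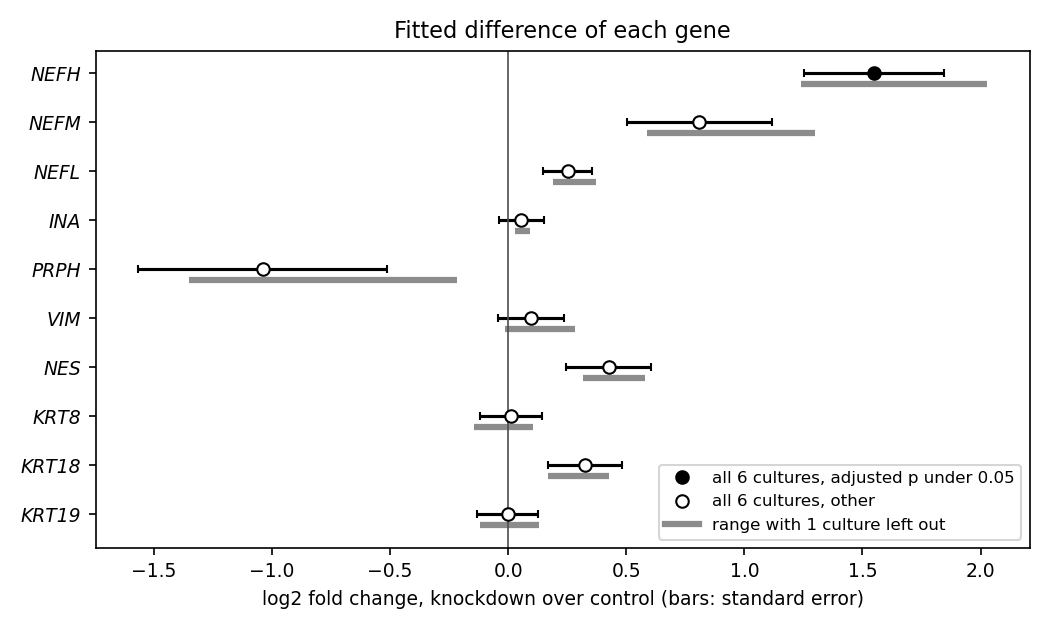
Log2 fold change, knockdown over control, with its standard error (black) and the range when 1 culture is left out (grey); the filled point is *NEFH*, whose adjusted p from edgeR is under 0.05. The grey ranges of *VIM*, *KRT8* and *KRT19* cross 0, and that of *PRPH* runs from -1.35 to -0.22.

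The control cultures were not alike in *NEFH* and *NEFM*. The coefficient of variation over the control cultures was 51.9% for *NEFH* and 49.7% for *NEFM*. These exceeded the control values of 99.3% and 99.1% of the 11295 tested genes averaging 100 counts or more. *PRPH*, with few counts, had a control value of 74.4%. For the remaining members it ran from 1.32% (*INA*) to 20.8% (*VIM*). In the knockdown cultures it was 5.98% for *NEFH* and 15.8% for *NEFM*. The median over all tested genes was 13.3% in the control and 7.82% in the knockdown cultures. Control culture 3 was the highest of the control cultures for 7 of the 10 members. It was also the control culture nearest to the knockdown mean for 7 of the 10, as it was for 43.4% of all tested genes. Knockdown culture 1 was the highest knockdown culture for 7 of the 10 members. For these counts of the highest culture no share of all tested genes is given, so they have no background to be compared with. Over all genes, control culture 2 stood furthest from the others, with a chi-square per gene of 26.6 and 28.1 against the other control cultures, which gave 9.90 between them, and it was the lowest control culture for *NEFH*. What control cultures 2 and 3 and knockdown culture 1 contributed to the differences beyond the values without them was not tested.

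Levels of different genes were compared per length, as counts per kilobase of annotated exons, scaled to a common library size (RPKM with TMM-adjusted library sizes). On this scale the control cultures had *VIM* first at 142 ± 29.6, followed by *KRT8* at 63.2 ± 7.18 and *KRT19* at 48.7 ± 8.38 (SD, n = 3 cultures). *NEFL* at 34.7 ± 4.62 and *KRT18* at 31.3 ± 6.10 came next and overlapped, as *KRT8* and *KRT19* did. *INA* followed at 14.8 ± 0.196 and *NEFM* at 7.22 ± 3.59. *NEFH* at 1.66 ± 0.863 and *NES* at 1.19 ± 0.212 overlapped near the bottom, above *PRPH* at 0.477 ± 0.355. *NEFL* was thus the most abundant neurofilament-class transcript.

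The order of the 10 levels was the same in the knockdown cultures, where *VIM* stood at 152 and *NEFL* at 41.3 on the same per-length scale. The neighbours that overlapped were different in part. *NEFM*, at 12.6 ± 2.00, then overlapped *INA*, at 15.4 ± 0.745. *NEFH*, at 4.83 ± 0.289, no longer overlapped *NES*, at 1.60 ± 0.0162. The pairs *NEFL* and *KRT18* overlapped in both groups. With the longest annotated transcript as the length, *KRT18* came before *NEFL* in both groups. The control means were then 276 for *VIM*, 152 for *KRT8* and 81.9 for *KRT19*, while those of *INA*, *NEFH* and *NES* stayed the same. How far the levels of different genes lie apart thus depends on the length used.

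The subunit make-up of the neurofilament-class transcripts was taken as the share of each gene in the summed level per length of *NEFH*, *NEFM*, *NEFL*, *INA* and *PRPH*. *NEFH* made up 6.58%, 6.55% and 6.33% in knockdown cultures 1, 2 and 3 and 2.74%, 1.68% and 3.77% in control cultures 1, 2 and 3. The groups did not overlap. *NEFL* held the largest share in every culture, 55.5% ± 0.169 in the knockdown and 59.0% ± 0.844 in the control group, also without overlap. The shares within a culture add up to a fixed whole, so higher shares of some genes lower those of the others. The lower *NEFL* share is therefore not a result separate from the *NEFH* share. The level of *NEFL* itself was not lower, at 41.3 per length in the knockdown and 34.7 in the control group. *NEFM* made up 16.9% ± 1.89 and 11.9% ± 4.01, and *INA* 20.8% ± 1.87 and 25.5% ± 3.65, and both overlapped between groups. *PRPH* made up at most 1.67% in any culture, in control culture 2. The summed level was 74.4 ± 3.30 in the knockdown and 58.9 ± 8.70 in the control group.

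**Figure D3:**
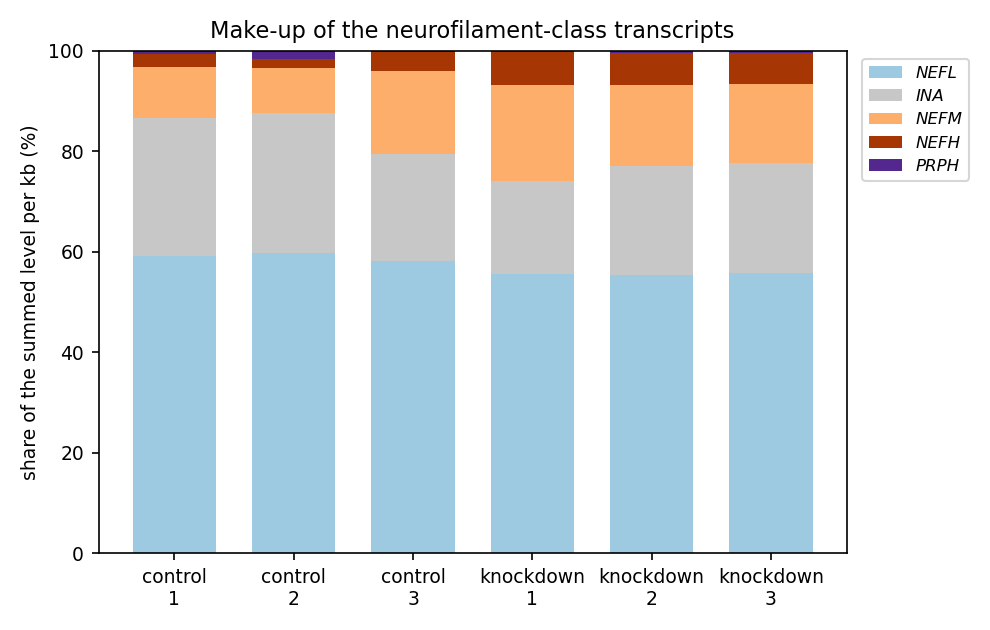
Share (%) of each of 5 neurofilament-class genes in their summed level per kilobase, in each control and knockdown culture. The *NEFH* band is 6.33% to 6.58% in the knockdown and 1.68% to 3.77% in the control cultures, and *NEFL* is the largest band in all 6.

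Read as ratios of levels per length, *NEFH* to *NEFL* was 0.117 ± 0.00279 in the knockdown and 0.0464 ± 0.0184 in the control cultures. *NEFH* to *NEFM* was 0.386 ± 0.0356 and 0.229 ± 0.0446, and neither ratio overlapped between groups. *NEFM* to *NEFL* was 0.304 ± 0.0343 and 0.202 ± 0.0713, with control culture 3, at 0.284, inside the knockdown range.

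The keratin pair was described in the same way, since *KRT8* and *KRT18* chains assemble together. *KRT8* to *KRT18* was 1.62, 1.68 and 1.56 in knockdown cultures 1, 2 and 3 and 2.32, 1.81 and 2.01 in control cultures 1, 2 and 3. The ratio was lower in all knockdown than in all control cultures, with means of 1.62 ± 0.0602 and 2.05 ± 0.260, although neither gene was called and both overlapped between groups. The value of the ratio depends on the length used, being 2.66 and 3.35 with the longest annotated transcript. Adding the counts of the listed pseudogenes left it at 1.62 and 2.05.

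The profile of *NEFH* over the 6 cultures was compared with those of 11294 other tested genes averaging 100 counts or more, as log2 normalized counts centred on each gene's mean. The likeness measure was the root mean square difference, which uses all 6 cultures and the same contrast. The resemblance, also that among the control cultures, is thus a description and follows from the selection. The closest gene was *COL5A1*, a chain of type V collagen, at 0.230, with 1360, 987 and 1123 normalized counts in the knockdown and 287, 276 and 685 in the control cultures. As in *NEFH*, control culture 3 lay between the other control cultures and the knockdown cultures. *LOC100129534* (0.314), *MGC12916* (0.331), *PKI55* (0.337) and *POLR3GL* (0.342), the last a subunit of RNA polymerase III, followed. Among the other members *NEFM* was the closest, at 0.423 and rank 27, with *NES* at rank 478 and *NEFL* at rank 1212.

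**Figure D4:**
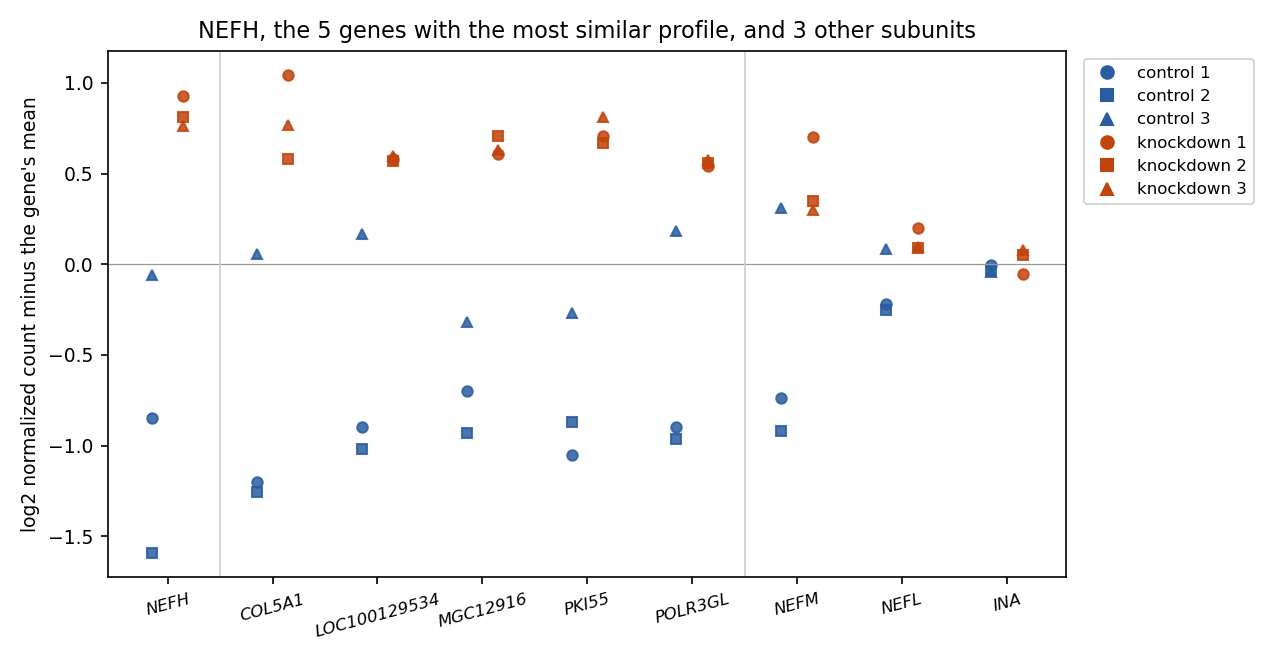
Log2 normalized counts, centred on each gene's mean, of *NEFH*, the 5 genes with the most similar profile and *NEFM*, *NEFL* and *INA*, in 3 control (blue) and 3 knockdown (red) cultures. Control culture 3 (blue triangle) is the highest control culture in *NEFH* and in each of the 5 similar genes, and *INA* is nearly flat.

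Of the 15 tested genes within 500 kb of *NEFH*, 1 was called lower (*GAS2L1*) and 1 higher (*ASCC2*), both named here after their values were seen. Among all genes tested, 4.64% were called lower and 5.40% higher. The median log2 fold change of the 15 neighbours was 0.05, beside -0.02 over all genes tested.

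Genes that work with these filaments were read from lists of 158 names, of which 99 were tested. The lists were chosen with earlier results of these data known, so their values and adjusted p are also given as a description. Of the 99 tested, 7 were called lower and 6 higher by edgeR's quasi-likelihood test with Benjamini-Hochberg adjustment over all genes, with a median log2 fold change of -0.05. Over all genes tested, 4.64% were called lower and 5.40% higher, with a median of -0.02. The same shares stand beside the counts of each list below. The calls within the lists depended on single cultures, as did those over all genes. Without knockdown replicate 1, 2 or 3 or control replicate 1, 3 were called higher in each case, and 3, 2, 1 and 3 lower. Without control replicate 3, 11 were called higher and 11 lower. Over all genes, 804 were called higher and 690 lower with all cultures. The former settings gave 289 to 375 higher and 233 to 294 lower over all genes, and the last gave 1087 and 994.

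The lamins, which form the intermediate filament layer under the nuclear envelope, held 1 call among 3 genes. *LMNB2*, which encodes lamin B2, rose from 5291 ± 373 to 7632 ± 95.5 normalized counts (log2 fold change 0.53 ± 0.09 SE, edgeR adjusted p of 0.0037), and it was called under all 14 alternative settings. *LMNA*, at 0.07, and *LMNB1*, at -0.10 on the log2 scale, were not called, and the sign of *LMNA* turned without knockdown replicate 1 or control replicate 1. The list of other cytoplasmic filament genes held 60 names, mostly keratins of skin and hair, of which 35 had no count in any culture and 11 were tested. None was called by edgeR, DESeq2 or limma-voom, and 2, *SYNM* and *IFFO1*, had an unadjusted p under 0.05. Without control replicate 2, 1 of the list was called higher, and 1 was called lower without control replicate 3 or with a correction for GC content and length.

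Among 15 tested linkers and desmosome genes, which tie filaments to each other and to cell junctions, 2 were called higher and 1 lower. *PLEC*, which encodes the crosslinker plectin, rose from 1041 ± 66.4 to 1606 ± 96.1 normalized counts (log2 fold change 0.63 ± 0.09 SE, edgeR adjusted p of 0.0021). It was called under all 14 settings. *PKP2*, a desmosomal plaque gene, rose by 0.37 on the log2 scale (edgeR adjusted p of 0.038), and *JUP*, which encodes plakoglobin, fell by 0.37 (edgeR adjusted p of 0.027). Neither was called without knockdown replicate 1, 2 or 3 or control replicate 1. At an unadjusted p under 0.05 in edgeR's fit there were 6 genes. Beside the called ones these were *DSG2* (log2 fold change -0.22), *DSC2* (-0.27) and *EPPK1* (-0.39), all lower. With the correction for GC content and length or without control replicate 2, 3 were called lower, and without control replicate 3, 3 were called higher.

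The list of turnover and phosphorylation genes had 20 tested members, of which 2 were called lower and 0 higher. At an unadjusted p under 0.05 in edgeR's fit there were 4. *CDK1*, the mitotic kinase that phosphorylates vimentin and lamins, fell by 0.47 on the log2 scale (edgeR adjusted p of 0.0071, and of 0.057 without knockdown replicate 3). Without control replicate 3, 4 genes of the list were called lower and 1 higher, and with the correction for GC content and length 1 was also called higher.

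Neuronal genes did not move one way. Of 14 tested genes of the neuronal cytoskeleton and transport, *MAPT*, which encodes the microtubule protein tau, rose from 139 ± 30.6 to 218 ± 20.0 normalized counts (log2 fold change 0.66, edgeR adjusted p of 0.039). *CRMP1*, a protein of axon guidance signalling, fell from 227 ± 42.9 to 144 ± 8.93 (log2 fold change -0.65, edgeR adjusted p of 0.032). *KIF1A*, a kinesin of axonal transport, fell from 2087 ± 225 to 1594 ± 70.1 (log2 fold change -0.39, edgeR adjusted p of 0.030). These 3 were not called without knockdown replicate 1, 2 or 3 or control replicate 1. Of 14 tested neuronal identity genes, *ENO2*, neuron-specific enolase, fell from 722 ± 88.6 to 506 ± 55.9 (log2 fold change -0.51, edgeR adjusted p of 0.027), and was not called without knockdown replicate 2 or 3. The median log2 fold changes of the 2 lists were -0.08 and 0.15. At an unadjusted p under 0.05 in edgeR's fit, the first list held 6 genes, among them *MAP2* (log2 fold change 0.65), *MAP1B* (0.30) and *TUBB3* (-0.41). The second held 4, which were *ENO2*, *RBFOX3* (0.82), *NCAM1* (0.26) and *SYT1* (-0.62). *RBFOX3* averaged 30.7 and *SYT1* 61.8 counts. DESeq2 and limma-voom each called 2 genes of the first list higher, as did edgeR without control replicate 3.

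REST is the repressor that keeps many neuronal genes silent outside neurons, and its list of 10 genes holds its cofactors. *REST* itself had 1047 to 1168 counts in the knockdown and 1024 to 1209 in the control cultures and a log2 fold change of 0.04, which turned negative without knockdown replicate 3 or control replicate 2. Of the cofactors, the deacetylase *HDAC1* rose from 2115 ± 275 to 3609 ± 194 normalized counts (log2 fold change 0.77, edgeR adjusted p of 0.0013), and it was called under all 14 settings. The chromatin remodeller *SMARCA4* rose by 0.43 and *RCOR1*, which encodes CoREST, fell by 0.44 on the log2 scale (edgeR adjusted p 0.019 and 0.013), and neither was called without knockdown replicate 1, 2 or 3 or control replicate 1. *HDAC2*, *SIN3A*, *KDM1A*, *EHMT2* and *CTDSP1* lay between -0.21 and 0.09 on the log2 scale, none of them called.

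Of 12 tested genes that separate epithelial from mesenchymal cells, 0 were called by edgeR, DESeq2 or limma-voom, and 3 had an unadjusted p under 0.05. These 3 were all mesenchymal genes and did not share a direction. Log2 differences were -0.90 (standard error 0.38) for *SNAI1* and 0.96 (0.32) for *SNAI2*, both transcription factors, and 0.21 (0.09) for the cadherin *CDH2*. *SNAI1* and *SNAI2* had low counts, averaging 22.3 and 37.2, and the groups overlapped for *SNAI1*. The median of the list was -0.08. Without control replicate 2, 1 was called higher, and 2 were without control replicate 3 or with the correction for GC content and length.

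Markers of the embryonic kidney were present in every culture. The summed level of *PAX2*, *SALL1*, *EYA1* and *WT1* was 1894 to 2068 normalized counts in the knockdown and 1628 to 1838 in the control cultures. Most of it was *SALL1*, at 1380 ± 60.0 in the knockdown and 1180 ± 118 in the control group. *WT1* went the other way, at 127 ± 18.3 and 148 ± 1.03, lower in all knockdown than in all control cultures. *PAX2* and *EYA1* overlapped between groups. None of the 4 was called by edgeR, DESeq2 or limma-voom, with 1 at an unadjusted p under 0.05. *EYA1* was called higher without control replicate 3. Of 7 fibroblast markers 3 were tested and 0 were called by the 3 tools, with 0 at an unadjusted p under 0.05. Their summed level was 668 to 995 in the knockdown and 604 to 824 in the control cultures, most of it *COL1A1*, whose log2 difference was -0.01. The other 6 had higher means in the knockdown group, each with its highest count in knockdown culture 3. *COL1A2* had 39, 40 and 108 counts in the knockdown and 59, 0 and 23 in the control cultures, *COL3A1* 21, 27 and 69 against 31, 10 and 24, and the other 4 at most 16 in any culture. The median log2 fold change of the 3 tested was 0.91, and the part of these markers in the differences of the members was not tested. Leukocyte markers summed to 13.6 to 26.8 and 14.4 to 28.6, with *CD3E* at 0 in every culture, and endothelial markers to 3.22 to 10.6 and 3.09 to 10.7 normalized counts. Counts per culture totalled 13900965 to 16869948.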

How the data were processed

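RNA-seq was read from 1 table of raw counts per gene in 6 cultures, which the authors deposited without normalization. The submitters' processing notes name FastQC 0.11.9, Trim Galore 0.6.6, STAR 2.7.9a, featureCounts 2.0.1 and the build hg38, while the methods name other versions of STAR and of the Subread package, which holds featureCounts, and add removal of ribosomal RNA with SortMeRNA. The gene annotation, the strand setting and the handling of multi-mapping reads are not given in the sources used here.

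Low counts were removed by filterByExpr, which left 14877 of 26485 genes. After TMM scaling, the group effect was tested in R 4.3.3 by the robust quasi-likelihood F test of edgeR 4.0.16. Each standard error is the absolute log2 fold change divided by the square root of F, not an output of the fit. P values were adjusted by Benjamini-Hochberg over all genes tested, and genes under 0.05 were called. With 3 against 3 cultures, an exact permutation test cannot give a two-sided p under 0.1 for a single gene. A normalized count is the count rescaled from its culture's effective library size to the mean one. Levels per length used the union of annotated exons in GENCODE 44 (hg38). Names were matched by symbol (23161) or RefSeq synonym (1357), 1967 had no match and 13 had been turned into dates. Cultures totalled 13900965 to 16869948 counts, and *PRPH*, with 7 to 39 counts, had the largest standard error of the members. No pair of cultures was a duplicate: the chi-square per gene between replicates was 1.94 to 28.1. Steps were tested on simulated data.

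Members and lists were chosen with earlier results of these data known. Named were all members, at most 5 called genes per list with a mean of at least 100 counts, all lamins, REST partners and kidney markers, rows that could share reads with a member, and the 5 genes most like *NEFH*. Added after their values were seen were *SYNM*, *IFFO1*, *MAP2*, *MAP1B*, *TUBB3*, *RBFOX3*, *NCAM1*, *SYT1*, *SNAI1*, *SNAI2*, *CDH2*, fibroblast and leukocyte markers and neighbours of *NEFH*. Also added in this way were *DSG2*, *DSC2* and *EPPK1*. Alternatives were DESeq2's size factors, library sizes alone, an unfiltered table, a minimum of 10 counts per culture, a replicate block, a GC content and length correction, each culture left out, DESeq2 1.42.0 and limma-voom (limma 3.58.1). Levels and ratios were also computed with the longest transcript. For 2 listed genes no single value is reported or drawn, although the counts of calls include them. Figures were drawn with matplotlib 3.10.9.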

Additional observations from a re-analysis of the deposited data

How the results depend on the processing

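*NEFH* kept its direction under all 14 alternative settings and was called under 12, with a log2 fold change of 1.24 to 2.03 when 1 culture was left out. *NEFM* (0.59 to 1.30) and *NEFL* (0.19 to 0.37) were called under 1 each, without control replicate 3. Members called higher ran from 0 to 3 when 1 culture was left out. Genes of the 158-name lists called higher ran from 3 to 11 and lower from 1 to 11, and with the GC content and length correction 10 were higher and 11 lower, beside 1343 higher and 1407 lower genes in all, against 804 and 690. Leaving out 1 culture gave 289 to 1274 higher and 233 to 1238 lower genes. The same-numbered cultures did not deviate together (correlations of -0.20, -0.11 and -0.04), so the numbers were not read as pairs, and no culture correlated best with its own number. The replicate block gave 714 higher and 619 lower genes, 1 member called and a log2 fold change of 1.64 for *NEFH*, and with it *PKP2*, *JUP* and *KIF1A* were not called (edgeR adjusted p of 0.097, 0.057 and 0.053).

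Differences near 0 changed sign. *KRT19* was 0.0020 with DESeq2's size factors, 0.0075 with library sizes alone, 0.0038 with at least 10 counts, 0.0039 with the replicate block, 0.036 with the GC content and length correction, 0.0010 in DESeq2, 0.0037 in limma-voom and -0.12 to 0.13 with 1 culture left out. With 1 culture left out, the log2 fold change ran from -0.015 to 0.28 for *VIM*, -0.15 to 0.11 for *KRT8*, -0.028 to 0.15 for *LMNA*, -0.086 to 0.13 for *REST*, -0.0084 to 0.074 for *SIN3A*, -0.062 to 0.011 for *HDAC2*, -0.0058 to 0.51 for *PAX2*, -0.18 to 0.19 for *VIM-AS1* and -0.063 to 0.095 for *NT5C2*. With the GC content and length correction *SIN3A* was -0.0024 and *HDAC2* 0.027. With the longest transcript as length, the *NEFH* share in the knockdown group was 6.03% and *KRT8* to *KRT18* was 2.66 and 3.35. *PRPH* had no value with at least 10 counts in every culture or in DESeq2. The causes were not tested.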
